A study of Arabidopsis thaliana with 10 samples.

Results

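The middle of a time course of AGAMOUS induction was measured with 4 of the 10 arrays of the series, 2 after 8 h and 2 after 10 h of treatment. The members were taken by their titles, and every probe measured on all 4 arrays was compared, which gave 10542 of 10816 probes. All RNA came from inflorescences of Arabidopsis thaliana of the genotype ag-1;35S::AG-GR. Each array set RNA of plants given a solution with dexamethasone against RNA of plants kept for the same number of hours with control solution, and the array was a cDNA array enriched for transcripts specific to flowers. Array 1 of each time carried the dexamethasone RNA in channel 1, and array 2 carried it in channel 2. The remaining arrays covered 0, 4 and 16 h in the same way, with 2 arrays each. Every plant on every array, those given control solution included, thus lacked the normal AGAMOUS gene and carried the fusion, and no array held a line without it. Nothing in the labels says whether the arrays of a time stood for separate plants, so that all p-values measure a spread between arrays that may be technical, and with few arrays their precision is low.

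AGAMOUS encodes a transcription factor of the MADS family that gives stamens and carpels their identity and ends the growth of the floral meristem. In plants with the ag-1 allele these organs are replaced by petals and sepals, and new flowers form inside the flower. In the fusion, AGAMOUS is linked to the hormone-binding domain of a glucocorticoid receptor, which holds the protein outside the nucleus until dexamethasone binds. The 35S promoter drives it in most tissues of the plant, well beyond the whorls where AGAMOUS is normally made. The arrays measured the whole inflorescence, in which fewer cells of a type and less RNA per cell cannot be told apart.

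The deposited values are log ratios of the channels of an array. Ratios of array 2 were turned in sign, so that the positive side of 0 means the same on all 4 arrays. Which channel is the numerator is not given in the sources used here. Whether the negative side stands for less or for more transcript with dexamethasone is therefore unknown, and the results are given by side. No gene names come with the probes, and 0 of the 10816 identifiers were found in the RefSeq gene table. No gene, pathway or sequence is named for that reason, and the labelled tissue could not be checked against marker genes. Probe identifiers have the form of a plate, a row letter and a column, and reading them in this way gives 114 plates.

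The log base was read from the values. On 8 of the 10 arrays a single value recurred 18 to 34 times, and a further 4 to 16 values lay 0.301 below it within 1.1e-05, which is the log10 of 2. Others lay at the log10 of 3. That spacing belongs to ratios of small whole numbers on a log10 scale, shifted by 1 constant for the whole array. On 8 h array 1 no value recurred more than 4 times, and on 0 h array 1 none more than 7 times. Those arrays also had 10 and 12 missing values, against 128 to 170 on the other 8, and 211 and 676 values at the upper limit of 2, against 1 to 16. Values at exactly 2 or -2 were left out, which took 219 values from 8 h array 1, 19 from 8 h array 2, 43 from 10 h array 1 and 26 from 10 h array 2. Of the 274 probes not compared, 218 had a missing value on at least 1 of the 4 arrays and 56 were left out for a limit value alone.

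Across all 10542 probes the turned arrays of different channel orientation were nearly uncorrelated. After turning, the arrays of 8 h correlated at -0.0594 and those of 10 h at -0.0255. Arrays of the same number correlated across the times, at 0.506 for number 1 and 0.699 for number 2. Correlations of different numbers across the times were -0.0181 and 0.0413. These are descriptions over probes, which are not independent and share an array and its dyes. A correlation near 0 between orientations also arises where a part they share and a part tied to the channel are of like size. How much of what 8 h and 10 h shared was tied to the array number is therefore not given by these values. The turned means of 8 h and 10 h correlated at 0.616. Deviations of same-numbered arrays from the mean of their time correlated at 0.546. The sign in each orientation is given for the probes below.

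**Figure D1:**
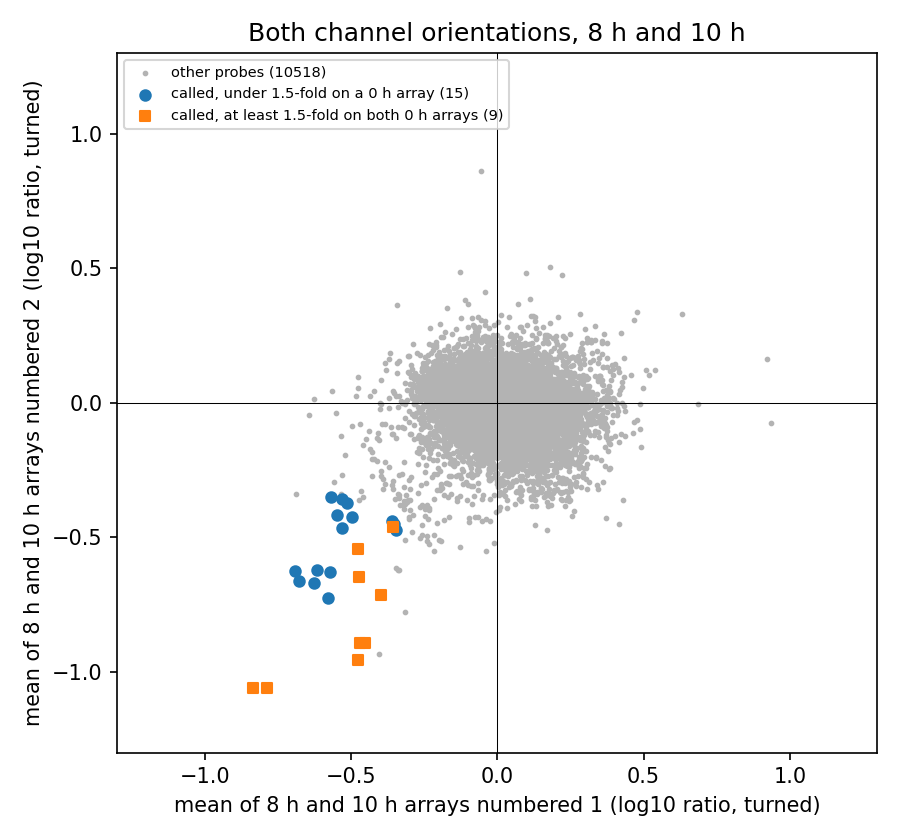
Each point is a probe, with its mean log10 ratio over the 8 h and 10 h arrays numbered 1 on the horizontal axis and over those numbered 2 on the vertical axis, both turned. The 24 called probes lie in the lower left, away from the centre of the 10518 other probes, and none lies in the upper right. Other probes lie in the lower left as well, since 24 of the 100 with a negative mean of at least 2-fold were called.

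The first comparison asked which transcripts responded to dexamethasone over 8 h and 10 h together. In limma's test, 24 of 10542 probes passed an adjusted p of 0.05, all 24 on the negative side (0.228% of the probes tested). On the positive side 0 probes passed (0%), with 352 positive and 388 negative probes at an unadjusted p under 0.05. The 24 differed from 0 by at least 2.51-fold, at the median by 3.62-fold and at most by 8.88-fold, and each had 1 sign on all 4 arrays. They came from 14 plates, with 6 probes from plate GP005, 5 from plate GP004, 2 from plate GP011 and 1 from each of the others. The nearest positive probes stood just outside the threshold, at an adjusted p of 0.052, where the last called negative probe stood at 0.045. Under an adjusted p of 0.1 there were 77 negative and 7 positive probes.

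The array number marks the channel orientation, so that a term for it in the model removes a dye effect of each probe from the spread. With that block 856 probes passed in limma, 448 on the positive side (4.25%) and 408 on the negative side (3.87%), and all 24 were among them. With the block the spread of a probe came almost wholly from all probes pooled (29.7 total degrees of freedom, against 8.13 without it). A call with the block was thus mostly a matter of size, with a smallest called change of 1.37-fold. The median change of the 856 was 1.52-fold. The size of that count depends on the arrays and values used: the block gave 297 with all 10 arrays in 1 fit, 117 positive and 180 negative, and 437 with limit values kept, 199 positive and 238 negative. All 24 were among the called probes of both. Of the 408, 330 had the negative sign on all 4 arrays, and 284 of the 448 had the positive sign on all 4. Leaving out an array also moved the number called without the block, to 125 without 8 h array 1, 232 without 8 h array 2 and 67 without 10 h array 1. Without 10 h array 2 it was 33. All 24 were among those called in the first 3 of these fits. With all 10 arrays in 1 fit and no block 19 probes passed, 17 negative and 2 positive. Of the 24, 10 were among them, none of which was at least 1.5-fold from 0 on both 0 h arrays. The result also rests on the labelled orientation: without turning, 0 probes passed in limma without the block, while 1713 had an unadjusted p below 0.05, and 1082 passed with it.

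Counts by size need no model. A mean of at least 2-fold with 1 sign on all 4 arrays was found for 100 probes on the negative side and 9 on the positive side. A change of at least 2-fold on each of the 4 arrays was found for 29 probes on the negative side and 0 on the positive side. With at least 1.5-fold on each array there were 82 negative and 22 positive probes. The same counts without turning, which is where an effect of the channel and not of the treatment falls, were 3 negative and 18 positive for the mean of 2-fold, and 1 on each side for 2-fold on every array. For 1.5-fold on every array they were 5 negative and 48 positive. Turning thus raised the counts of large changes on the negative side and lowered those on the positive side. Without regard to size, 3256 probes (30.9%) had 1 sign on all 4 arrays without turning, against 1964 (18.6%) after it. These thresholds were chosen after values had been seen.

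**Figure D2:**
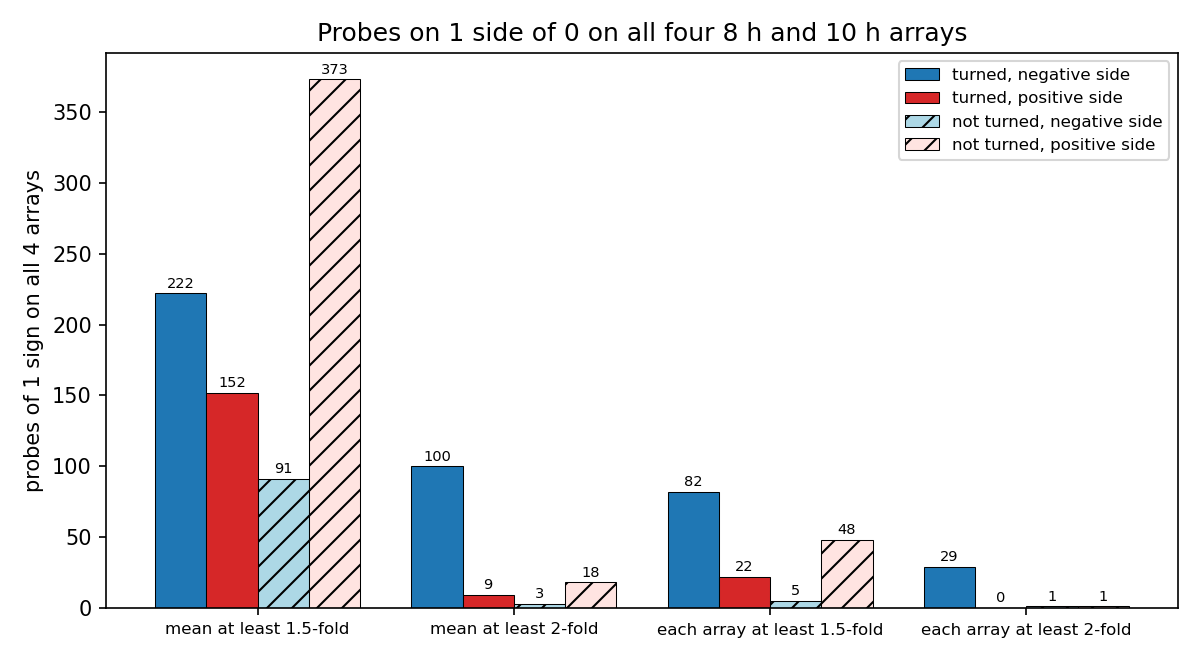
Bars give the number of probes with 1 sign on all 4 arrays of 8 h and 10 h that also reach the size under each group of bars, after turning by the labelled channels (filled) and without it (hatched). At 2-fold on each array the turned ratios hold 29 negative and 0 positive probes, and the ratios without turning hold 1 of each.

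The 24 called probes fell into 2 kinds by their ratios at 0 h. Of them, 9 were at least 1.5-fold from 0 on both 0 h arrays, and 15 were not. This division was made after the values were seen.

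On average the 15 were near 0 at 0 h and far from it at 8 h and 10 h. The division by 0 h values favoured the first, and the calling favoured the second. Single probes of the 15 ran from -0.247 to 0.313 on 0 h array 1, and from -0.106 to 0.177 on 0 h array 2. At 0 h their mean log10 ratio was 0.00488 ± 0.0399 (SD, n = 2 arrays), and after 4 h it was -0.183 ± 0.132. The 8 h mean was -0.575 ± 0.0255, the 10 h mean -0.471 ± 0.00532 and the 16 h mean -0.600 ± 0.203. In folds these are 1.53 at 4 h, 3.76 at 8 h and 2.96 at 10 h. Array by array, the mean of the 15 was -0.593 and -0.557 at 8 h, and -0.475 and -0.468 at 10 h, so that both orientations gave nearly the same level. The test that called the 15 divides by the spread between the arrays of a time, so that this closeness was favoured by the choice. The arrays of 4 h and 16 h did not enter that choice. At 4 h the arrays stood apart, at -0.0902 and -0.277. The 16 h arrays stood apart as well, at -0.744 and -0.457, with array 1 below array 2 in 13 of the 15 probes.

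**Figure D3:**
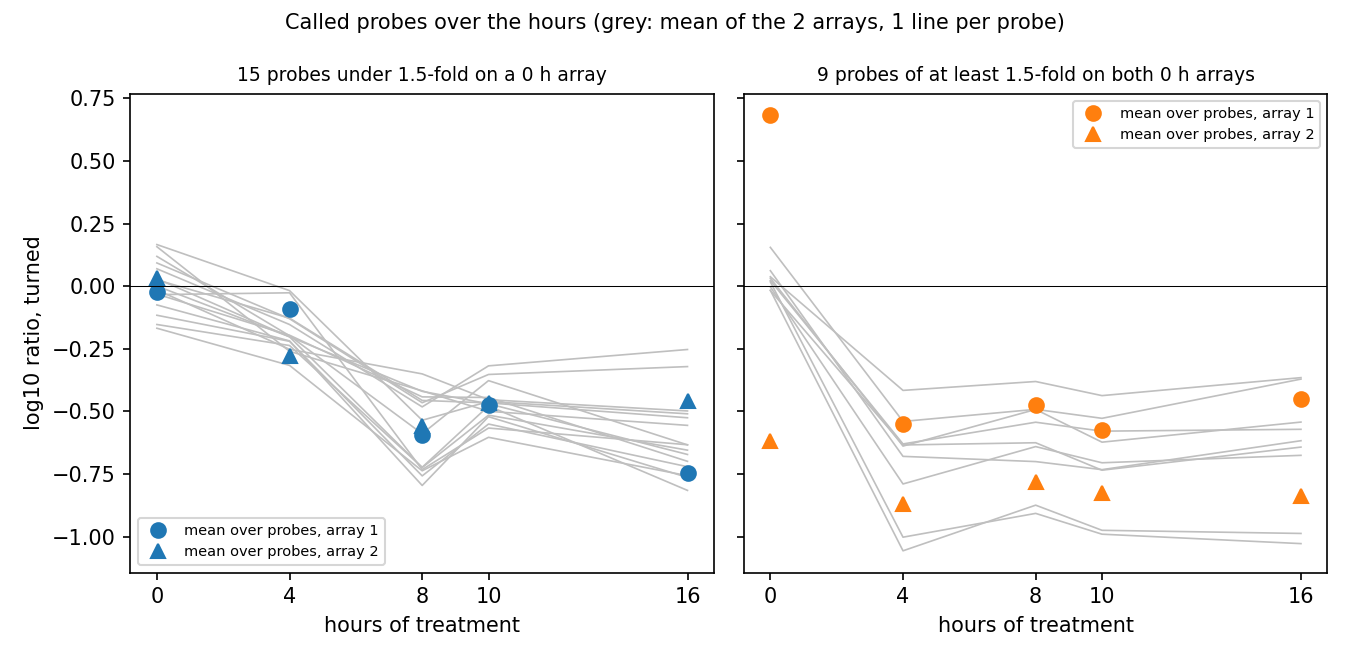
Grey lines follow each called probe over hours of treatment as the mean log10 ratio of the 2 arrays, and coloured symbols give the mean over the probes on each array. On the left, the mean of the 15 probes goes from about 0 at 0 h to -0.575 at 8 h, both favoured by how they were chosen. Their arrays lie close together at 8 h and 10 h, which the test that called them favours. On the right the 9 probes have opposite signs on the 0 h arrays and little change from 4 h on.

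GP011D5 had the lowest mean of the 15. Its turned log10 ratios were -0.695 and -0.779 on the 8 h arrays and -0.659 and -0.547 on the 10 h arrays. They were -0.247 and -0.0887 at 0 h, -0.247 and -0.385 at 4 h, and -0.538 and -0.975 at 16 h. All 10 values lay on the negative side, and every 8 h and 10 h value lay below every 0 h and 4 h value. The mean of 8 h and 10 h was -0.670 (SE 0.0555, 4.68-fold, limma adjusted p = 0.0045).

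GP062A4 came next, with turned log10 ratios of -0.849 and -0.742 at 8 h and -0.532 and -0.510 at 10 h. At 0 h they were -0.0998 and -0.0493, at 4 h -0.124 and -0.313, and at 16 h -1.05 and -0.476. The 8 h values lay below the 10 h values, and both lay below all values of 0 h and 4 h. Over 8 h and 10 h it averaged -0.658 (SE 0.0544, 4.55-fold, limma adjusted p = 0.0045). GP011D5 and GP062A4 were singled out after their values were seen, since the fixed rule named only probes of the other kind.

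Among the 15, 4 probes formed 2 pairs in adjoining wells, and these may not count as separate. In the pair GP004H11 and GP004H12 the means of 8 h and 10 h were -0.444 and -0.443, and the probes differed by at most 0.0613 on any of the 10 arrays. The pair GP011D4 and GP011D5 had means of -0.600 and -0.670 and differed by up to 0.238 on an array.

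The 9 other called probes all lay in plates GP004 and GP005, and 7 of them had a called neighbour in the next well. The fixed rule named GP005D2 and GP005D3, which lie side by side. GP005D2 had turned log10 ratios of -0.788 and -1.03 at 8 h and -0.883 and -1.10 at 10 h. Its mean was -0.948 (SE 0.0659, 8.88-fold, limma adjusted p = 0.0045). GP005D3 had -0.706 and -1.04 at 8 h and -0.872 and -1.08 at 10 h, averaging -0.924 (SE 0.0719, 8.40-fold, limma adjusted p = 0.0045). With all 10 arrays in 1 fit neither passed (limma adjusted p = 0.13 and 0.15). At 0 h the turned ratios were 0.930 and -0.895 for GP005D2, and 0.900 and -0.932 for GP005D3, so that the size was already there at 0 h and its sign differed between the arrays. At 4 h they were -0.853 and -1.15 for GP005D2, no nearer to 0 than at 8 h.

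As a group the 9 had means of 0.683 and -0.618 on the 0 h arrays and -0.550 and -0.869 on the 4 h arrays. The 8 h arrays had -0.476 and -0.780, the 10 h arrays -0.573 and -0.827, and the 16 h arrays -0.452 and -0.836. On every array from 4 h on, array 1 was nearer to 0 than array 2. Their ratios at 8 h and 10 h thus lay at the level of 4 h, unlike those of the 15. Without the probes of at least 1.5-fold on both 0 h arrays, 9 of the 10483 remaining probes passed in limma, all 9 among the 15.

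Whether the middle of the course differed from the other times was tested over all probes. Against 0 h, limma passed 0 of 9876 probes, while 373 had an unadjusted p below 0.05, and the adjusted p of the 15 ran from 0.252 to 0.367. With the block, 50 probes passed (0.506%), 47 of them lower at 8 h and 10 h than at 0 h. These included all 15, with adjusted p of 0.0287 to 0.049 in limma with the block, and 0 of the 9. The division into 15 and 9 used the 0 h values, so that this contrast of both kinds is partly fixed by it. With the block and all 10 arrays in 1 fit, 1 probe passed against 0 h, and 0 of the 15. The shared probes are thus 15 of the 24 and 15 of the 50. The first 0 h array correlated with the 8 h and 10 h arrays at -0.0284 to 0.0367. The second 0 h array correlated at 0.397 and 0.442 with those numbered 2, and at -0.246 and -0.261 with those numbered 1. Without the second 0 h array 57 probes passed against 0 h in limma with no block. Leaving out the first one instead gave 0 of 10523, with 229 at an unadjusted p below 0.05. The lone 0 h array is then assumed to vary like the others.

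Against 4 h, all 15 probes lay lower at 8 h and 10 h, with differences in log10 ratio from -0.150 to -0.623. Of all 10535 probes, 4943 lay lower. The 15 were called for values far from 0 at 8 h and 10 h, all of them negative, which favours this direction. No probe passed in limma, 0 of 10535 with or without the block, while 67 without it and 338 with it had an unadjusted p below 0.05. The lowest adjusted p among the 15 was 0.317 with the block. A later onset than 4 h in these probes is therefore not shown by the test. Of the 9, 2 lay lower at 8 h and 10 h than at 4 h. Against 16 h, 0 of 10525 probes passed in limma with or without the block, while 46 without it and 387 with it had an unadjusted p below 0.05. Of the 15, 3 lay lower at 8 h and 10 h than at 16 h, against 5050 of all 10525 probes.

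The arrays of the other times did not enter the comparison of 8 h and 10 h with 0, so that the sign of the members there is a separate measurement, though arrays of 1 number share a channel orientation. At 16 h, all 24 called probes were negative on both arrays, where 21.8% of all probes tested were. So were 94 of the 100 probes with a negative mean of at least 2-fold. On the positive side, 21 of the 22 probes of at least 1.5-fold on each array were positive on both 16 h arrays, where 20.5% of all probes were. At 4 h both arrays were negative for 19 of the 24 and for 70 of the 100, against 21.2% of all probes, and positive for 16 of the 22, against 21.0%. At 0 h the shares were near or below those of all probes on the negative side, with 5 of 24 and 11 of 96 probes measured there, against 28.4%. On the positive side they were 7 of 21 probes against 26.0%. Of the 96 negative probes, 43 (44.8%) were positive on both 0 h arrays, also against 26.0%.

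**Figure D4:**
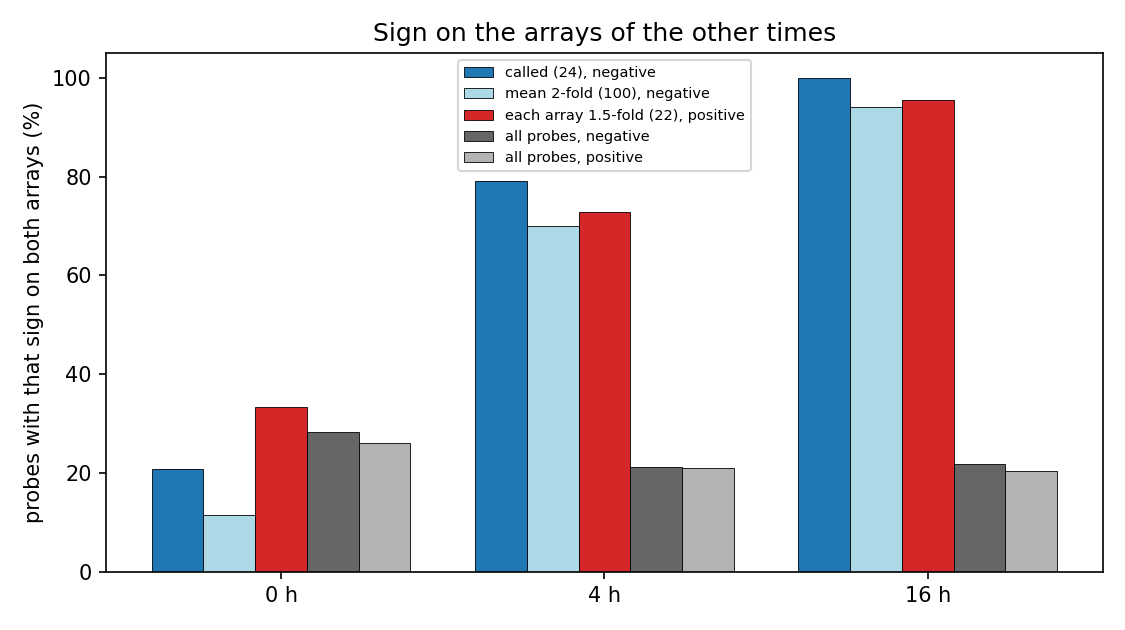
Bars give the percentage of probes that had the sign of their 8 h and 10 h mean on both arrays of another time, for the 24 called probes, the 100 negative probes of at least 2-fold, the 22 positive probes of at least 1.5-fold on each array, and all probes tested. At 16 h the 3 sets reach 100%, 94.0% and 95.5%, against 21.8% negative and 20.5% positive for all probes, and at 0 h they lie between 11.5% and 33.3%.

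The larger set of 100 negative probes had smaller ratios. Without those that were at least 1.5-fold on both 0 h arrays, 85 probes in 51 plates were left, the 15 called probes among them. At 0 h they had a mean log10 ratio of 0.0583 ± 0.0579 (SD, n = 2). The 4 h mean was -0.176 ± 0.128, the 8 h mean -0.415 ± 0.0272, the 10 h mean -0.348 ± 0.0492 and the 16 h mean -0.388 ± 0.176. Of these 85, 84 lay lower at 8 h and 10 h than at 4 h, against 4943 of all 10535 probes. All 85 passed with the block in limma and 15 without it. The 85 were picked from the 8 h and 10 h arrays, so that their means at these times are inflated by the choice. Lying lower than at 4 h was favoured by the same choice. The smallest change called with the block was 1.37-fold, so that passing there was close to fixed for a mean of at least 2-fold.

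On the positive side the changes were smaller, also under the same cut. The 82 negative probes of at least 1.5-fold on each array had mean log10 ratios of -0.434 ± 0.00395 (SD, n = 2) at 8 h and -0.403 ± 0.0542 at 10 h. The 22 probes of at least 1.5-fold on each array lay in 15 plates and had a mean log10 ratio of -0.000523 ± 0.0223 (SD, n = 2) at 0 h. The 4 h mean was 0.139 ± 0.0147, the 8 h mean 0.309 ± 0.0887, the 10 h mean 0.284 ± 0.0244 and the 16 h mean 0.261 ± 0.0759. All 22 passed with the block in limma and 0 without it. The smallest change called with the block was 1.37-fold, so that passing there was close to fixed by the choice of at least 1.5-fold. The 2 positive probes of 1 sign with the lowest p, chosen after their values were seen, were GP114C6 and GP087C2. GP114C6 had turned log10 ratios of 0.530 and 0.377 at 8 h and 0.405 and 0.239 at 10 h, against 0.115 and 0.161 at 0 h. Every 8 h and 10 h value lay above both 0 h values and above both 4 h values of -0.186 and 0.0435. Its mean was 0.388 (SE 0.0597, 2.44-fold, limma adjusted p = 0.052, with the block 2.2e-07). GP087C2 had 0.485 and 0.207 at 8 h and 0.473 and 0.469 at 10 h, and at 16 h 0.0117 and 0.274. Its mean was 0.408 (SE 0.0629, 2.56-fold, limma adjusted p = 0.052, with the block 1.8e-07). For both probes the p with the block rests mostly on a spread pooled over all probes, and little on their own arrays. The SE with the block was 0.0438 for GP114C6 and 0.0456 for GP087C2.

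Each time alone gave fewer calls. At 8 h, 8 probes passed in limma, all negative (0.0759%), 6 of the 15 and 2 of the 9. These calls were lost, with 0 probes passing in limma, with all 10 arrays, with the 8 treated arrays, with limit values kept and with each array scaled. At 10 h 0 passed, while 400 had an unadjusted p below 0.05, with a lowest adjusted p of 0.051. With the block 362 passed at 8 h (3.43%) and 342 at 10 h (3.24%). The 8 h and 10 h values themselves were alike: the turned mean of 8 h correlated with that of 10 h at 0.616 over all probes. A dye effect equal and opposite in the orientations cancels in these means, while other effects of the array number may enter them. For 10 h minus 8 h 0 probes passed in limma, while 29 had an unadjusted p below 0.05, and 2 passed with the block (0.019%), 1 on each side and neither among the 24. In 10 of the 15 and 68 of the 85 the ratio was farther from 0 at 8 h than at 10 h, and in 0 of the 9. Of all 10542 probes, 5127 lay farther from 0 at 8 h. These counts were not tested, and probes in adjoining wells may not count as separate in them. Single probes among the 15 were thus not shown to differ between 8 h and 10 h.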

How the data were processed

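For each probe and array the authors deposited a signed log10 ratio of both channels, with the base read here from the values. How the arrays were scanned, corrected and normalized, and with which dyes, is not given in the sources used here. Signal over background is unknown. Values at 2 or -2 were left out and array 2 ratios turned in sign. Models were fitted with limma 3.58.1 (lmFit, eBayes) in R 4.3.3, with 1 coefficient per time and only the arrays compared, on probes measured on all of them. All tests were two-sided, p-values were adjusted by Benjamini-Hochberg over every probe tested, and the threshold was 0.05. Python 3.11.15, pandas 2.3.3, numpy 2.4.6 and matplotlib 3.10.9 served for descriptions and plots.

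The arrays, comparisons, alternatives and the rule for named probes (the 2 called probes with the largest mean on each side and 1 sign on all 4 arrays) were chosen with earlier results of these data known. Gene lists fixed beside them could not be used without gene names. The numbers pair the arrays, since the labels tie each number to a channel orientation, and deviations of same-numbered arrays from the mean of their time correlated at 0.546 between 8 h and 10 h. On simulated data for the mean of 8 h and 10 h over 10542 probes, with a dye effect, log10 changes of 0.2 were found for 3% of changed probes without the block and 93% with it, and those of 0.4 for 98% and 100%. Of the unchanged probes, 0 and 7 were called. Beyond that dye effect, no effect of an array was simulated. Every simulated probe also had the same spread between arrays, a setting in which a pooled spread holds for each probe. The shares found and the false calls therefore need not hold for these data. Alternatives were the block, more arrays, limits kept, scaling, centring by plate, a stricter filter, a 2-fold minimum, the other orientation and single arrays left out.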

Additional observations from a re-analysis of the deposited data

Results flagged for a closer look

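Values at the limits were left out of every comparison. On both 8 h arrays, 7 probes stood at a limit on the same side after turning, all 7 positive, against 5 for 0 h, all positive, 0 for 4 h, and a single negative probe each for 10 h and 16 h. At 8 h 3 further probes stood at a limit with opposite sides after turning. The count at 8 h is drawn to attention because it exceeds that of 0 h, by 2 probes, and the difference was not tested. Since 211 of the 219 limit values of 8 h array 1 are at 2, and all 676 of 0 h array 1, both of these times hold an array with many values at the positive limit. Of the 4 arrays, 194 probes were at a limit on 1, 47 on 2, 5 on 3 and 1 on all 4. Groups of 2 arrays were not tested for an outlying array.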

How the results depend on the processing

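Counts are probes passing in limma, against 24 for the mean of 8 h and 10 h, 8 at 8 h and 0 for the other comparisons. The count for the mean stayed within 1.5 times of 24 in 4 of its 19 alternatives. Of these 4, the 2-fold minimum could not move the count, since the smallest called change was 2.51-fold. All 10 arrays gave 19 and scaling 16, but only 10 and 14 of the 24 were among them, and GP005D2 and GP005D3 were not among the 19. The replicate block gave 856 for the mean, 362 at 8 h, 342 at 10 h, 2 for 10 h minus 8 h and 50 against 0 h, and 0 against 4 h and 16 h. The block with all 10 arrays gave 297, 29 and 4 for the mean, 8 h and 10 h, and 1 against 0 h. With the 8 treated arrays the mean gave 11 and 8 h gave 0. Keeping limit values gave 11 for the mean, 0 at 8 h and 2 against 0 h. Centring by plate gave 66 for the mean and 2 at 10 h, probes measured on all 10 arrays 45 for the mean. At 8 h, all 10 arrays and scaling gave 0. The other orientation gave 0 for the mean and 0 at 8 h, with 1713 and 1001 at an unadjusted p under 0.05. It turned GP005D2 to 0.113 and GP005D3 to 0.136 (limma adjusted p = 0.91 and 0.89), also with the replicate block (0.087 and 0.066). Single arrays left out gave 33 to 232 for the mean, 17 to 75 at 8 h, 5 to 51 at 10 h, 0 to 15 for 10 h minus 8 h, 0 to 57 against 0 h and 0 to 1 against 4 h, where an arm of 1 array is assumed to vary like the others. Chosen after seeing the data, 1 coefficient for all 4 arrays gave 89, leaving out the probes of at least 1.5-fold at 0 h 9, leaving out values at ratios of whole numbers up to 10 gave 50, the replicate block with limit values kept 437, and with the other orientation 1082. Leaving out the probes of at least 1.5-fold at 0 h took away 9 of the 24, and of the 15 that stayed in only 9 passed. The cause of the changes was not tested.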
